A study of Rattus norvegicus with 19 samples.

Results

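Apolipoproteins are the proteins that carry lipid through blood, and the genes described here are 9 of these and their partners in the rat liver: Apoa1, Apoa2, Apoa4, Apoa5, Apob, Apoc3, Apoe, Mttp and Lipc. The members were chosen by gene, as every array probe whose gene name, or whose current symbol by accession or synonym, is 1 of these 9 (of 15324 named genes), which gave 15 probes of 41012 non-control probes. Apob had 5 probes, Apoc3 and Mttp had 2 each, and the other members had 1 each. A further probe described as the rat Apoe gene did not meet this rule and was not used. All 15 were well above background on all 19 arrays in both channels, none was saturated, and all were among the 25313 probes tested.

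Liver RNA came from 19 male Wistar rats that were 8 weeks old at the start and ate 1 of 3 diets for 4 months. The 6 rats on the high protein diet (HP) ate 45% of energy in protein, mostly casein, 45% in carbohydrate and 10% in fat. The 6 rats on the high fat diet (HF) ate 60% in fat, 20% in protein and 20% in carbohydrate. The 7 Control rats ate 70% in carbohydrate, 20% in protein and 10% in fat. In HF livers fat thus took the place of carbohydrate at an equal share of protein, and in HP livers protein took the place of carbohydrate at an equal share of fat, so more of the one nutrient and less carbohydrate cannot be told apart in either comparison with Control. All rats were wild type and were killed fed, in the early morning. Each value is the log2 ratio of the RNA of 1 rat (Cy5) to an equimolar pool of liver RNA (Cy3) on a 2-colour Agilent array, so it gives a level relative to the pool and says nothing of one gene against another. A call needed a limma p below 0.05 after Benjamini-Hochberg adjustment over the 25313 probes. In whole liver, fewer cells of a type and less RNA per cell cannot be told apart.

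The liver packs triglyceride and cholesterol into very low density lipoprotein around apolipoprotein B, with the transfer protein made by Mttp loading the lipid. Enzymes at vessel walls then draw fatty acids from these particles, and the remnants return to the liver through receptors that bind apolipoprotein E. Apolipoproteins A-I and A-II form the shell of high density lipoprotein, and hepatic lipase, made by Lipc, trims both particle kinds. Apoa1, Apoc3, Apoa4 and Apoa5 lie beside one another on rat chromosome 8, in that order, with 0 annotated genes between them in the RefSeq annotation.

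Of the 9 genes, Apoa4 and Lipc were lower in HF livers than in Control livers, and Apoa5 was lower in HP livers than in HF livers. No member passed the test between HP and Control livers. Apoa4 showed the largest change among the 15 probes: HF livers held 46.3% of the Control level. The other 6 genes passed in no comparison.

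The upstream sequences of these 3 genes are shown because these are the members that passed a test. The RefSeq promoter table (build GRCr8) matched 4 of the 9 members, with 7 windows. Each line gives the 250 bases before the annotated start, 5′ to 3′ on the strand of the gene. Capitals mark matches to the nuclear receptor half-site AGGTCA (either strand), the HNF1 half-site GTTAAT (either strand), the E-box CACGTG (its own reverse complement) and the TATA box TATAAA (strand of the gene). The cyclic AMP element core TGACGT was also searched, on either strand. None of the matched letters overlap those of another motif. The Apoa4 window is chr8:55435529-55435778 (plus strand), the Apoa5 window chr8:55457621-55457870 (plus strand, the first of 2 annotated starts) and the Lipc window chr8:80516286-80516535 (minus strand).
Apoa4: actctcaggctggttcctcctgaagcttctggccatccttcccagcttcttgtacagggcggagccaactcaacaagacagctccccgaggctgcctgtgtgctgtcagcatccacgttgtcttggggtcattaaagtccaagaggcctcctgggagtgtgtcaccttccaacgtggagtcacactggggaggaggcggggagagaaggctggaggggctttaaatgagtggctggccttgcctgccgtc
Apoa5: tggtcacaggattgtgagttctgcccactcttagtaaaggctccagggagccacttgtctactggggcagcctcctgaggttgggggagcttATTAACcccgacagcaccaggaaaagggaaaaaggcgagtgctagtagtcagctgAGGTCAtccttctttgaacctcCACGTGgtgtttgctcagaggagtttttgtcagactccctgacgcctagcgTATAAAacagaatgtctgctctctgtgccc
Lipc: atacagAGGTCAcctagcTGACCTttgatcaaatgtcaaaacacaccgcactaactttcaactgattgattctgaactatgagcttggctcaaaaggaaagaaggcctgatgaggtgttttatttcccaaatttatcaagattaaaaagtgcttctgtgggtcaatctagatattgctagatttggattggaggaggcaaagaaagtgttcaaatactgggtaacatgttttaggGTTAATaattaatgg
Over all 33469 promoter windows in the table, AGGTCA was present in 14.064%, TATAAA in 8.055%, TGACGT in 6.947%, GTTAAT in 6.454% and CACGTG in 5.593%. The Apoa5 window held AGGTCA at -103, CACGTG at -81, TATAAA at -30 and the HNF1 half-site, read on the other strand, at -158, counted back from the start. The Lipc window held AGGTCA at -244, its reverse complement at -232 and GTTAAT at -15. The Apoa4 window held none of the 5 letter strings, which says only that these letters are not in these 250 bases. Letter matches of this kind are common and mark no tested binding site.

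Cy5 exceeded background clearly in 53.7% to 67.1% of an array's spots, and Cy3 in 46.5% to 54.5%. The liver label was checked against 10 hepatocyte markers (Alb, Ttr, Tf and others), all of which were measured, with median log ratios of 0.26 to 0.47 in HP livers, 0.11 to 0.32 in HF livers and 0.07 to 0.31 in Control livers. HP livers lay at the upper end of this list. In HP minus HF, 4 of its 10 genes were higher and 1 was lower, beside 3.82% and 3.27% of all probes. The part of this in the HP results was not tested. The liver of Control 6 stood apart, with a standard deviation of log ratios of 0.44, against 0.20 to 0.29 on the other arrays, and a median of 2.34 over the 6 measured lymphocyte markers, against -0.88 to -0.51 elsewhere. Results that could rest on it are given with and without it.

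**Figure D1:**
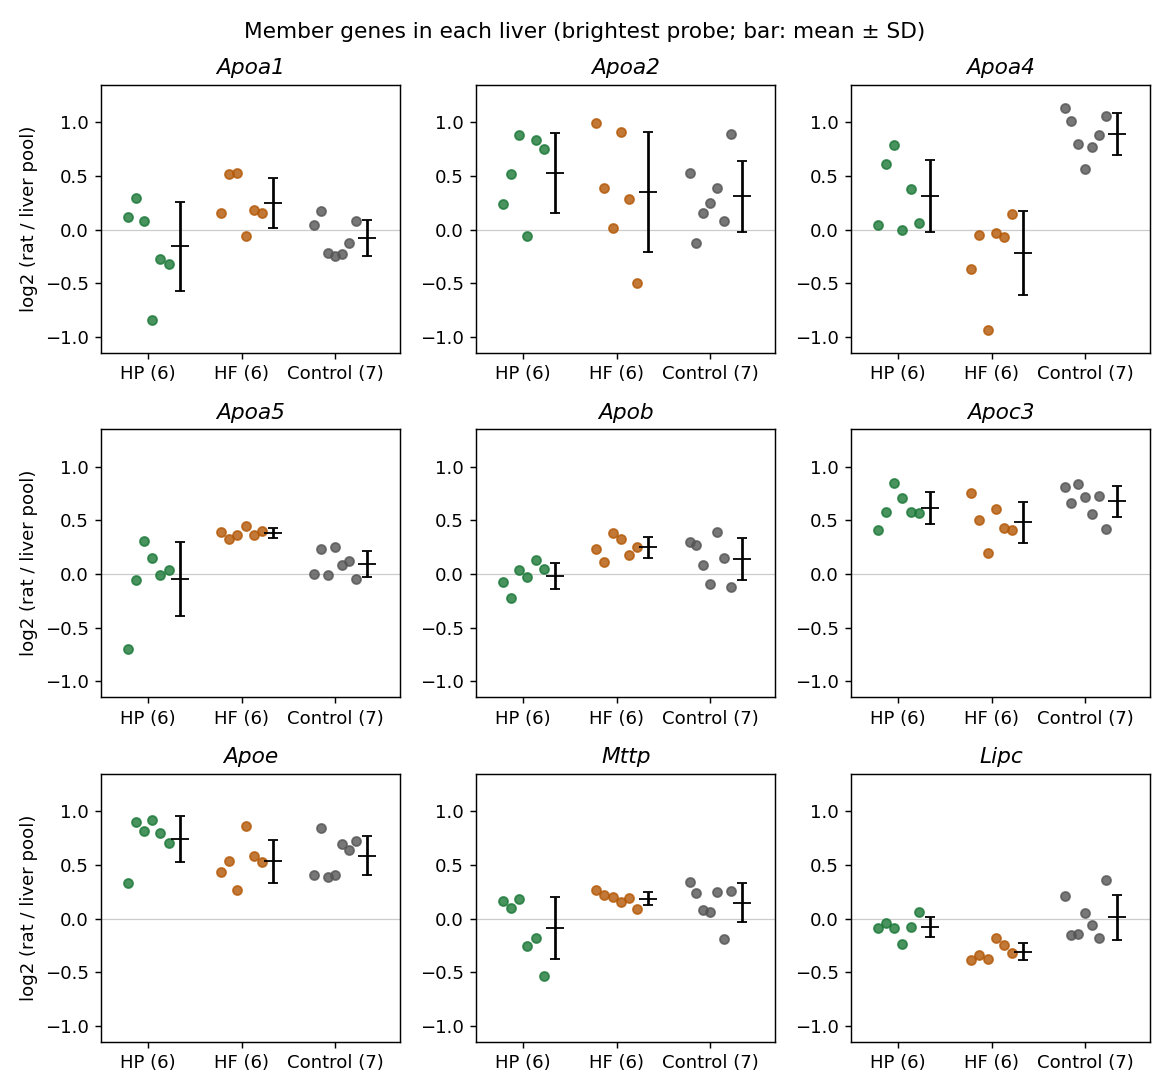
Log2 ratio of each liver to the pool (vertical axis) for the brightest probe of each of the 9 members, in the 6 HP, 6 HF and 7 Control livers. Each point is 1 liver and the bar is mean ± SD; the HF points of Apoa4 and Lipc all lie below every Control point, and those of Apoa5 all lie above every HP and every Control point.

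Apolipoprotein A-IV, encoded by Apoa4, rides on triglyceride-rich particles and on high density lipoprotein; in rodents the intestine and the liver both make it. Its probe lies at rn4 chr8:49233335-49233394. The log2 ratio ran from a lowest of -0.01 through a median of 0.22 to a highest of 0.79 in HP livers. It ran from -0.94 through -0.06 to 0.14 in HF livers, and from 0.57 through 0.88 to 1.14 in Control livers. No HF liver reached any Control liver, and 4 of 6 HP livers lay below every Control liver. The means were -0.22 ± 0.39 in HF livers and 0.89 ± 0.20 in Control livers (SD, n = 6 and 7), a change of -1.11 ± 0.16 (log2, SE; limma adjusted p = 0.00061). HP livers averaged 0.31 ± 0.34 (SD, n = 6), which set against Control livers was -0.58 ± 0.16 without passing (limma adjusted p = 0.114). Set against HF livers, HP livers were 0.53 ± 0.17 apart, also without passing (limma adjusted p = 0.0591). The F test over the 3 diets passed for Apoa4 (adjusted p = 0.00073).

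Among the slides on which both diets sat, the Apoa4 difference of HF minus Control was -1.29, -0.78 and -1.51, and that of HP minus Control was -0.42, -1.12 and -0.45. Every slide therefore gave a lower mean in HF, and in HP, than in Control, although these rest on 1 to 3 livers a side. Without Control 6 the HF change of Apoa4 was -1.11 (limma adjusted p = 0.0006). Of 8 genes listed as markers of small intestine, the other source of this transcript, 4 were measured (Alpi, Lct and Si were not above background on enough arrays and no probe was named Cdx1). Of these, Cdx2 (Cy5 of 63 to 91) and Vil1 (74 to 98) were dim in all livers where measured. By limma 0 of the 4 passed between HF and Control livers (1 at an unadjusted p below 0.05), with a median change of 0.25. The summed Cy5 signal of the 4 was 1735 to 16435 in HF livers and 1209 to 4649 in Control livers, and the highest value came mostly from Cdh17 in HF 3 (15430), the liver with the lowest Apoa4. This sum follows Cdh17 and Fabp2 alone. The Cy5 of Cdh17 ran from 373 to 3676 in Control livers, 449 to 4210 in HP livers and 486 to 15430 in HF livers. Whether Cdh17 marks intestine rather than liver in these samples was not tested, nor was the presence of intestinal tissue.

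Hepatic lipase, encoded by Lipc, breaks down phospholipid and triglyceride in high density and remnant particles at the surface of liver sinusoids. Its probe spans 1559 bases of the genome at rn4 chr8:75327597-75329155. The log2 ratio ran from -0.23 through a median of -0.08 to 0.06 in HP livers, from -0.39 through -0.33 to -0.19 in HF livers and from -0.18 through -0.06 to 0.36 in Control livers. HF livers lay below all Control livers, by little at the nearest point, while HP and Control livers overlapped. HF livers averaged -0.31 ± 0.08 and Control livers 0.01 ± 0.21 (SD, n = 6 and 7), a change of -0.32 ± 0.08 (limma adjusted p = 0.0258), or 80.1% of the Control level. HP livers averaged -0.08 ± 0.10, a difference of -0.09 ± 0.08 from Control livers (limma adjusted p = 0.64). HP minus HF was 0.23 ± 0.08 without passing (limma adjusted p = 0.0968). The 3 slides with both diets gave -0.31, -0.10 and -0.60 for HF minus Control. The Lipc call was less steady than that of Apoa4: with slide as a fixed block the change was -0.28 (limma adjusted p = 0.216), and without Control 6 it was -0.35 (limma adjusted p = 0.0125). The Lipc call was also lost without Control 1, HF 1, HF 2, HF 3 or HF 6 (limma adjusted p of 0.0502 to 0.0619).

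Of the 15 member probes, 2 were lower and 0 higher in HF than in Control livers, beside 3.45% of all probes called, 1.73% lower and 1.72% higher. Groups that did not overlap numbered 3 of 15 (Apoa4, Lipc and Apoa5), beside 1.89% of all probes, and 5 of 15 had an unadjusted limma p below 0.05, beside 15.7%. The F test over the 3 diets called 2 of 15 (Apoa4 and Lipc), beside 6.57% of all probes. The median change of the members was 0.04, beside -0.01 over all probes. In HP against Control livers 0 of 15 passed, beside 0.446% of all probes, and 3 had an unadjusted limma p below 0.05, beside 14.4% of all probes. These were Apoa4, an Apob probe and an Mttp probe.

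Apolipoprotein A-V, encoded by Apoa5, is made in the liver and promotes the breakdown of triglyceride by lipoprotein lipase. Its probe lies at rn4 chr8:49255236-49255295. The log2 ratio ran from -0.70 through a median of 0.01 to 0.31 in HP livers, from 0.33 through 0.38 to 0.45 in HF livers and from -0.05 through 0.09 to 0.25 in Control livers. HF livers were tightly grouped above every liver of both other diets, and HP livers were widely spread with 1 far below the rest. HP livers averaged -0.04 ± 0.35 and HF livers 0.38 ± 0.04 (SD, n = 6 each), a difference of -0.43 ± 0.11 (limma adjusted p = 0.0269), or 74.4% of the HF level. HF livers against Control livers, which averaged 0.09 ± 0.12 (SD, n = 7), gave 0.29 ± 0.11 without passing (limma adjusted p = 0.179), though the groups did not overlap. HP minus Control was -0.14 ± 0.11 (limma adjusted p = 0.602).

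Apoa5 was recomputed without the lowest HP liver. Without HP 1 the HP minus HF difference of Apoa5 was -0.30 (limma adjusted p = 0.0159), and HF minus Control passed at the same 0.29 (limma adjusted p = 0.013). Without Control 6 the Apoa5 value of HF minus Control was 0.30 (limma adjusted p = 0.1866). Only slide 4 held both HP and HF livers, and there the difference was -0.66. With slide as a fixed block the call was lost at a difference of -0.43 (limma adjusted p = 0.2302), as it was for Apoa5 without HP 2 (limma adjusted p = 0.0513) or HF 4 (limma adjusted p = 0.0565). Of the 10 hepatocyte markers 4 were higher and 1 was lower in HP than in HF livers, beside 3.82% and 3.27% of all probes. Their part in the Apoa5 difference was not tested.

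The HP and HF diets differed at once in protein (45% and 20% of energy), fat (10% and 60%) and carbohydrate (45% and 20%). These cannot be told apart in the comparison of HP with HF livers. There, 1 of 15 member probes was lower (Apoa5) and 0 were higher, beside 7.09% of all probes called, 3.27% called lower and 3.82% called higher. Groups that did not overlap numbered 1 of 15, beside 4.97% of all probes, and 8 of 15 had an unadjusted limma p below 0.05, beside 20.2%. The median difference of the members was -0.18, beside -0.00138 over all probes.

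**Figure D2:**
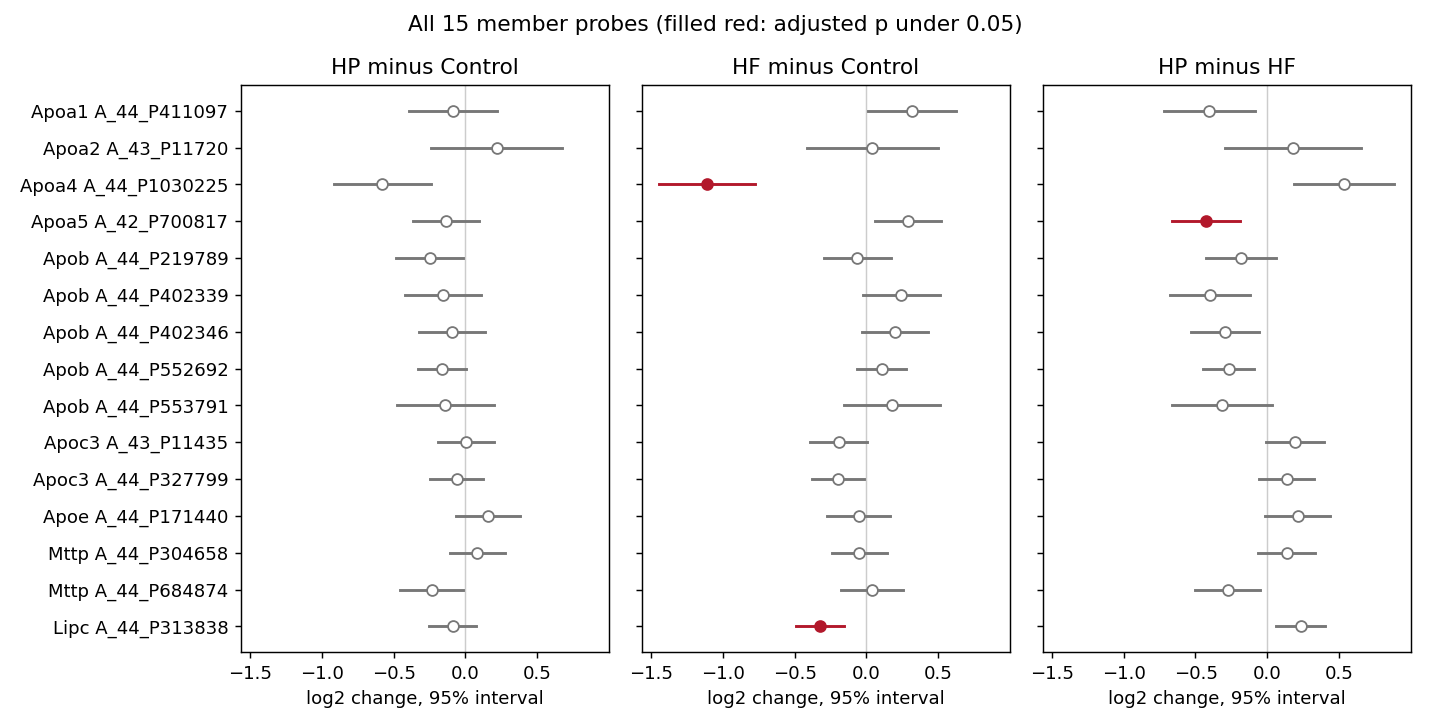
Log2 change of each of the 15 member probes (rows) in HP minus Control, HF minus Control and HP minus HF, with 95% intervals. Filled red points passed at an adjusted p below 0.05: Apoa4 (-1.11) and Lipc (-0.32) in HF minus Control and Apoa5 (-0.43) in HP minus HF.

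Apoa1 and Apoa2 encode the major proteins of high density lipoprotein. The log2 ratio of Apoa1 ran from -0.84 through a median of -0.10 to 0.30 in HP livers, from -0.06 through 0.17 to 0.53 in HF livers and from -0.24 through -0.12 to 0.17 in Control livers. All 3 groups overlapped. Apoa1 was -0.08 ± 0.15 in HP minus Control (limma adjusted p = 0.828), 0.32 ± 0.15 in HF minus Control (limma adjusted p = 0.293) and -0.40 ± 0.15 in HP minus HF (limma adjusted p = 0.123). Apoa2, at rn4 chr13:87115432-87115491, spread widely, with log2 ratios of -0.06 to 0.88 in HP livers, -0.50 to 1.00 in HF livers and -0.13 to 0.89 in Control livers. Its intervals were wide in each comparison (-0.24 to 0.68 for HP minus Control, -0.42 to 0.50 for HF minus Control), and none passed.

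Apoc3 encodes an inhibitor of triglyceride breakdown and remnant uptake. Its 2 probes correlated with r = 0.77 over 19 arrays after diet means were removed, which describes how alike they are. On the brighter probe, log2 ratios were 0.41 to 0.85 in HP livers, 0.19 to 0.75 in HF livers and 0.42 to 0.84 in Control livers, all overlapping. HF minus Control was -0.20 ± 0.09 on this probe and -0.19 ± 0.09 on the other (limma adjusted p = 0.279 and 0.325), and HP minus Control was -0.06 ± 0.09 and 0.00 ± 0.09. Apoe, the ligand for remnant uptake, at rn4 chr1:79003795-79003854, had log2 ratios of 0.33 to 0.92 in HP livers, 0.26 to 0.87 in HF livers and 0.39 to 0.85 in Control livers. Its interval was -0.06 to 0.38 for HP minus Control and -0.27 to 0.17 for HF minus Control, and neither passed. HP minus HF was 0.21 ± 0.11 (limma adjusted p = 0.293).

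Apob, the structural protein of very low density lipoprotein, was read by 5 probes between 31536084 and 31547547 on rn4 chromosome 6. In HP minus HF livers all 5 had estimates below 0, from -0.18 to -0.40, and none passed (limma adjusted p = 0.0591 at the smallest, 0.415 at the largest). Without Control 6, probe A_44_P402339 passed at the same -0.40 (limma adjusted p = 0.0351). HP minus Control ran from -0.25 to -0.09 over the 5 probes and HF minus Control from -0.06 to 0.24, and none passed. On the brightest probe the log2 ratios ran from -0.23 through a median of 0.00 to 0.13 in HP livers, from 0.11 through 0.25 to 0.39 in HF livers and from -0.12 through 0.15 to 0.40 in Control livers. Here 5 of 6 HP livers lay below every HF liver. Probe A_44_P219789 had log2 ratios of -0.30 to -0.07 in HP livers, -0.12 to 0.18 in HF livers and -0.27 to 0.53 in Control livers. Probe A_44_P402339 had -0.50 to 0.42 in HP livers, 0.13 to 0.68 in HF livers and -0.29 to 0.43 in Control livers, and its neighbour A_44_P402346 had -0.33 to 0.30 in HP livers, 0.06 to 0.35 in HF livers and -0.32 to 0.38 in Control livers. Groups overlapped on each of these probes, and also on A_44_P553791, where HF livers ran from -0.20 to 0.57 and Control livers from -0.55 to 0.38. The 5 probes share a transcript and are no replicates of each other: their 10 pairs correlated between 0.02 and 0.89 across arrays (median 0.47), so they did not all follow the same livers. Mttp, whose product loads lipid onto apolipoprotein B, gave -0.23 ± 0.10 for HP minus Control on its brighter probe (limma adjusted p = 0.313), with log2 ratios of -0.53 to 0.18 in HP livers, 0.08 to 0.27 in HF livers and -0.19 to 0.34 in Control livers. On its other probe the same comparison was 0.09 ± 0.09 (limma adjusted p = 0.701), with log2 ratios of -0.27 to 0.21 in HP livers, -0.17 to 0.00 in HF livers and -0.41 to 0.19 in Control livers. The estimates of the 2 Mttp probes thus had opposite signs, and neither passed. In HP minus HF they were -0.27 ± 0.11 on the brighter probe and 0.13 ± 0.10 on the other (limma adjusted p = 0.143 and 0.483).

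Because Apoa4 sits between its neighbours on chromosome 8, its change was set beside theirs, a choice made after the values were seen and therefore given without a test. The HF minus Control value of Apoa4 less that of its neighbour was -1.43 for Apoa1, -0.92 for Apoc3 (brighter probe) and -1.40 for Apoa5. For all 3 neighbours the Apoa4-minus-neighbour values of HF livers did not overlap those of Control livers. Apoa4 alone did not overlap between these groups and enters all 3 differences, so this separation is largely its own and no further result. In HP minus Control the like differences were -0.49, -0.52 and -0.44, with overlap in each; from Cy5 alone those of Apoa4 minus Apoa1 and Apoa4 minus Apoa5 were -0.27 and -0.29.

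**Figure D3:**
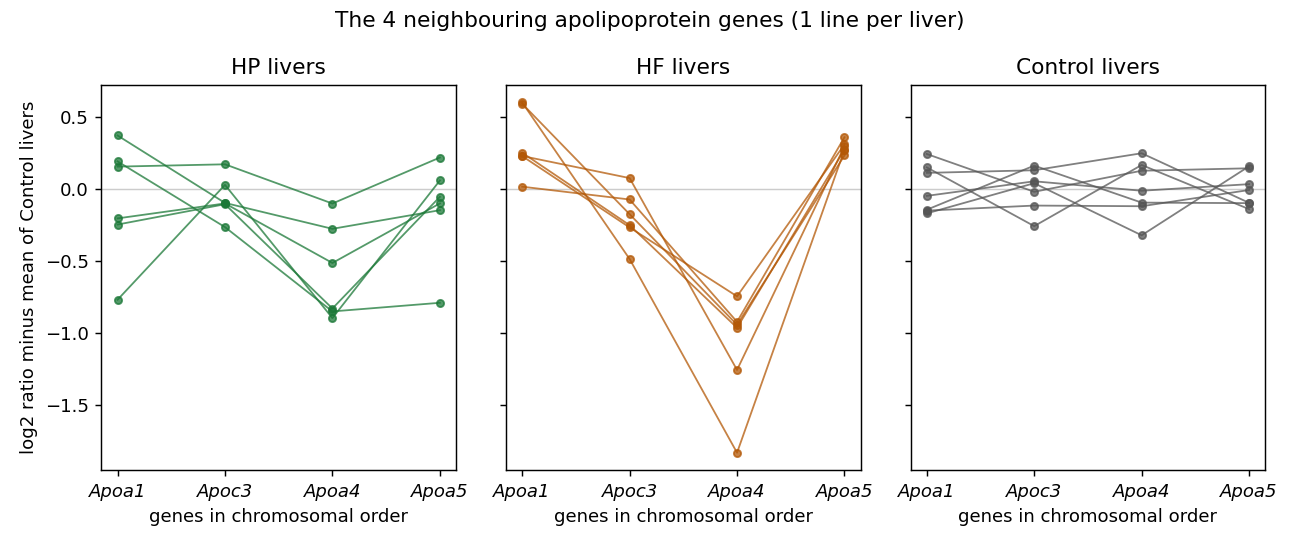
Log2 ratio minus the Control mean (vertical axis) of Apoa1, Apoc3, Apoa4 and Apoa5 in chromosomal order, 1 line per liver, in HP, HF and Control livers. Every HF line is at its lowest at Apoa4; the mean HF change there was -1.11, against 0.32 at Apoa1, -0.20 at Apoc3 and 0.29 at Apoa5.

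Genes whose log ratios were most like those of a called member over the 19 arrays were picked by Pearson r among 10883 other named genes; all share the pool channel, and r is a description. For Apoa4 they were Cadm1 (r = 0.88), Slc2a5 (0.85) and Gbe1 (0.84). For Lipc they were Hspa4l (0.96), Cd81 (0.85) and Pdk1 (0.84). For Apoa5 they were Abhd2 (0.82), Slc27a2 (0.82) and Aldh1a1 (0.82). With diet means removed, Hspa4l kept r = 0.93 with Lipc, while Cadm1 had 0.60 with Apoa4 and Abhd2 had 0.66 with Apoa5.

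**Figure D4:**
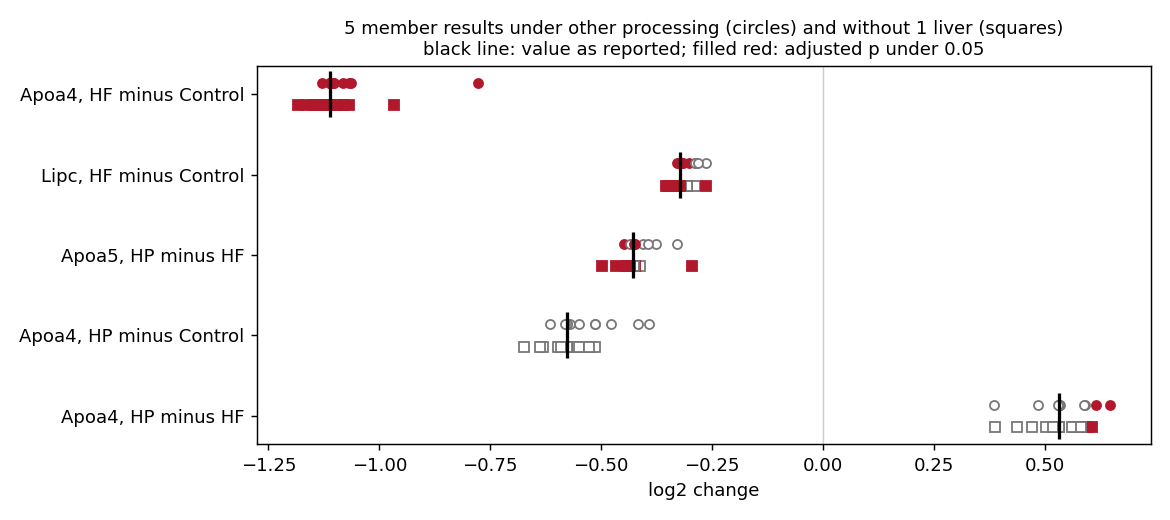
Log2 change of 5 member results (rows) under 14 other processing settings (circles) and without 1 liver at a time (squares), with the reported value as a black line; filled red marks an adjusted p below 0.05. Apoa4 in HF minus Control stayed between -1.18 and -0.78 and passed in each setting shown.

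Among the other lipoprotein genes, 70 were listed, 65 had a probe and 57 were measured. By their brightest probe 0 passed in limma between HP and Control livers, beside 0.446% of all probes called. An unadjusted limma p below 0.05 was reached by 4, beside 14.4% of all probes. In HF against Control livers 5 were higher and 1 was lower, beside 3.45% of all probes called (1.72% higher and 1.73% lower). Here 14 had an unadjusted limma p below 0.05, beside 15.7% of all probes. In HP against HF livers 3 were higher and 6 lower, beside 7.09% of all probes called (3.82% higher and 3.27% lower). Here 18 had an unadjusted limma p below 0.05, beside 20.2% of all probes. Of 10 measured lipases, transfer proteins and remodelling genes, Lcat, the enzyme that esterifies cholesterol on high density lipoprotein, rose by 0.30 ± 0.05 in HF livers against Control livers (limma adjusted p = 0.0017). Angptl4, an inhibitor of lipoprotein lipase, was -0.79 ± 0.19 in the same comparison (limma adjusted p = 0.0222). Among 9 measured receptor and uptake genes, Scarb1, the receptor for high density lipoprotein, was 0.42 ± 0.09 (limma adjusted p = 0.0123). Its other probe gave 0.25 without passing (limma adjusted p = 0.148). Lrp1 did not pass on its brightest probe. A dimmer Lrp1 probe passed in HP minus HF (-0.25, limma adjusted p = 0.0059) and in HF minus Control (0.23, limma adjusted p = 0.0151). Of 9 measured other apolipoproteins only Clu passed in HF minus Control (0.24 ± 0.06, limma adjusted p = 0.031). Of 17 measured regulators, Nr2f2, an orphan nuclear receptor that binds apolipoprotein promoters, was 0.49 ± 0.09 (limma adjusted p = 0.0024) and Creb3l3, a liver factor that in mice raises Apoa4 and Apoa5, was 0.41 ± 0.11 (limma adjusted p = 0.0468). Creb3l3 lost its call without Control 6 (0.41, limma adjusted p = 0.0571), and in 14 of the 19 refits that left out 1 liver. Clu lost its call in 6 of these refits and Angptl4 in 3, while Lcat, Nr2f2 and Scarb1 lost theirs in 0. With slide as a fixed block, the calls of Scarb1 (0.40, limma adjusted p = 0.0793), Angptl4 (-0.55, limma adjusted p = 0.2566) and Creb3l3 (0.45, limma adjusted p = 0.1028) were lost, and those of Lcat, Nr2f2 and Clu were kept. Clu lost its HF minus Control call with Cy5 alone (limma adjusted p = 0.1775) and with the replicate block (limma adjusted p = 0.05225).

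The comparison of HP with HF livers shares the HF livers with that of HF with Control. In HP minus HF, Lcat was -0.37 ± 0.05 (limma adjusted p = 0.0002), Creb3l3 was -0.61 ± 0.12 (limma adjusted p = 0.0029), Scarb1 was -0.43 ± 0.10 (limma adjusted p = 0.0084, and -0.08 on its other probe), Clu was -0.30 ± 0.06, Nr2f2 was -0.33 ± 0.09 and Angptl4 was 0.69 ± 0.20. Cideb, a lipid droplet protein used in particle assembly, was -0.36 ± 0.10, and Arfgap1, a trafficking protein, was 0.23 ± 0.06, though 0.03 on its other probe. Saa4, a serum amyloid A apolipoprotein, was 0.38 ± 0.11 and 0.72 on its other probe, which also passed (limma adjusted p = 0.00056). The refits that follow used the brightest probe of each gene. Of the 19 refits without 1 liver, 8 lost the HP minus HF call of Nr2f2, 7 that of Angptl4, 6 that of Saa4, 5 that of Cideb and 3 that of Arfgap1. With slide as a fixed block only Lcat and Clu among these 9 genes kept a call in HP minus HF. The values of the lost ones were then -0.18 for Nr2f2, 0.27 for Angptl4, -0.35 for Scarb1, -0.58 for Creb3l3, -0.24 for Cideb, 0.18 for Arfgap1 and 0.33 for Saa4 (limma adjusted p of 0.0906 for Creb3l3 to 0.6832 for Angptl4). Lcat and Clu lost the HP minus HF call with the deposited matrix (limma adjusted p of 0.0513 and 0.1078). With Cy5 alone Clu lost it as well (limma adjusted p = 0.2091). Abca1, Pltp, Lpl, Hnf4a, Nr1h3 and Ppara passed in no comparison; in HP minus HF, Abca1 was -0.25 ± 0.10 (limma adjusted p = 0.146) and Ppara was -0.24 ± 0.12 (limma adjusted p = 0.251). Of the hepatocyte markers 4 of 10 were higher and 1 lower in HP than in HF livers, beside 3.82% and 3.27% of all probes. The part of these markers in the differences above was not tested.

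**Figure D5:**
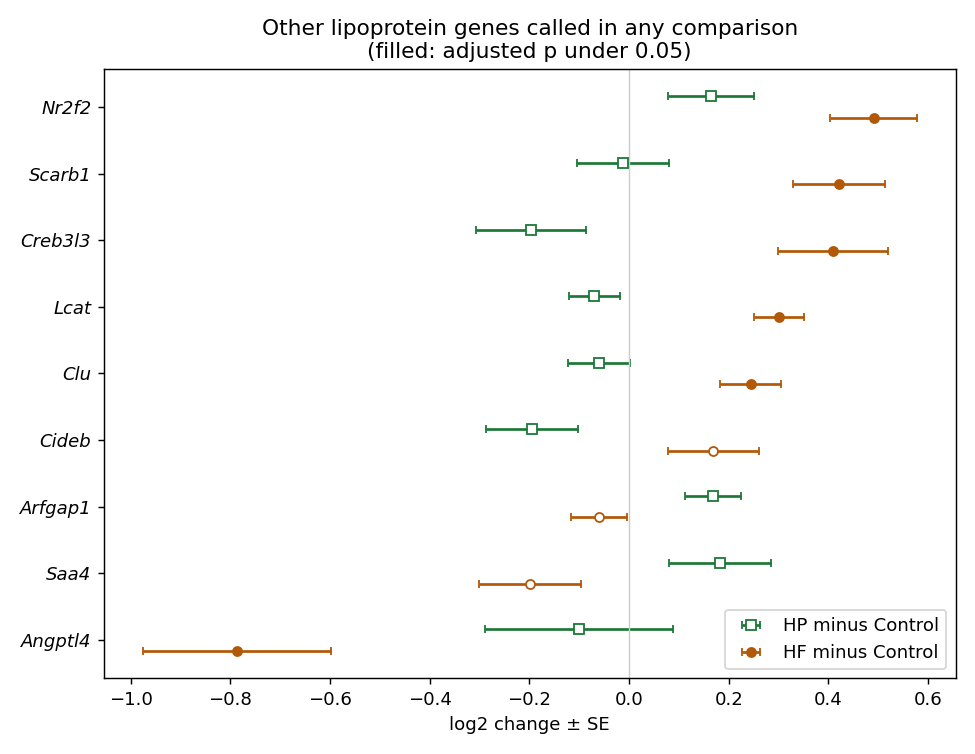
Log2 change ± SE of the other lipoprotein genes whose brightest probe passed in at least 1 of the 3 comparisons, in HP minus Control (squares) and HF minus Control (circles). Filled symbols passed at an adjusted p below 0.05. Lcat, Nr2f2, Scarb1, Clu and Creb3l3 lie above 0 and Angptl4 below 0 in HF minus Control, and no gene passes in HP minus Control.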

How the data were processed

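Liver RNA of 19 rats was read on 2-colour arrays, 1 rat in Cy5 and a liver pool in Cy3, with no dye swap. Per the file headers, the authors deposited scanner output with intensity values, mean signal and local background, from Agilent Feature Extraction 10.5.1.1. They also deposited a matrix of log2 values for 22764 features, with column medians of 8.20; the steps behind it are not given in the sources used here, and it served as an alternative. Control spots and flagged outliers were dropped. Spots whose background exceeded the signal by over 50 (40 spots on 5 arrays) were dropped too. Background was corrected by normexp (offset 50), ratios were normalised by loess within each array, and repeated spots were averaged. The filter asked for Cy5 clearly over background on 6 or more of the 19 arrays, and 25313 probes met it. Gene names for the 41012 probes came from accessions (10835), symbols (5201), synonyms (3488) or the files alone (134), and 21354 had none. Probe positions are those of build rn4 in the files.

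In R 4.3.3 and limma 3.58.1, 1 model over the 3 diets gave 3 two-sided contrasts and an F test (16 residual and 3.31 prior degrees of freedom), with Benjamini-Hochberg adjustment over all kept probes. The model was run on simulated data with independent noise and no slide or array effects, which checks the code and not its fit to these arrays. Replicates are separate animals; their number limits the precision. Slides (5) are scan batches that hold several diets. Named genes are all member probes, listed lipoprotein genes that passed or were listed by name, and 3 most like genes per called member. The members, lists and tests were chosen with earlier results of these data known. A few listed genes are left out of the text but stay in the counts. No pairing was used. Alternatives were other background, normalisation and filter choices, slide and replicate blocks, array weights, and leaving out each liver.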

Additional observations from a re-analysis of the deposited data

Results flagged for a closer look

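Of 45 member probe and diet groups tested for a single sample far from the others, 2 were flagged, and chance flags about 1 in 20 groups. Apoa5 in the liver of HP 1 had a log2 ratio of -0.69897, and the nearest other HP liver had -0.05528. Apoe in the same liver had 0.33411, and the nearest other HP liver had 0.70459.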

How the results depend on the processing

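The Apoa4 call in HF minus Control held in all 33 alternatives (-1.18 to -0.78). Other filters, dropping saturated spots and leaving out an HP liver could not alter this estimate, so there only its adjusted p could move. Lipc in HF minus Control lost its call in 5 settings (-0.26 to -0.29; processed signals, Cy5 alone, the deposited matrix, slide as a fixed block and the replicate block) and without Control 1, HF 1, HF 2, HF 3 or HF 6. Apoa5 in HP minus HF lost its call with processed signals, normexp on every spot, Cy5 alone, the deposited matrix and slide as a fixed block, and without HP 2 or HF 4. Apoa4 in HP minus HF gained a call with the deposited matrix, both channels filtered, array weights, and without HP 4 or HF 6. Apob probe A_44_P402339 gained one there with normexp on every spot, array weights and the replicate block, and without Control 6 or HP 5. Apob probe A_44_P552692 gained one with both channels filtered and array weights, and without Control 4, Control 5 or Control 7. Lipc in HP minus HF gained one with array weights and without Control 7. The causes were not tested. In HP minus Control, 113 probes passed; 54 did with processed signals, 61 with normexp on every spot, 53 with Cy5 alone, 24 with slide fixed, 281 with array weights and 208 with the replicate block. The split moved from 78 higher and 35 lower to 32 and 29 with normexp on every spot and to 81 and 9 with the deposited matrix. With slide fixed the other counts were 474 (HF minus Control), 365 (HP minus HF) and 524 (F test). HP minus HF with array weights gave 3094, and 967 higher and 575 lower with the deposited matrix. Member probes called in HF minus Control numbered 1 under processed signals, Cy5 alone, the deposited matrix, slide fixed and the replicate block. In HP minus HF they numbered 0 under processed signals, Cy5 alone and slide fixed, 3 with both channels filtered, 5 with array weights and 4 with the replicate block. By the F test they numbered 1 with processed signals, normexp on every spot, Cy5 alone, the deposited matrix and slide fixed. Leaving out 1 liver gave 26 (without HP 2) to 461 (without Control 7) probes in HP minus Control, 651 to 1001 in HF minus Control, 1328 to 2520 in HP minus HF and 1255 to 2139 by the F test; for member probes 0 to 0, 1 to 3, 0 to 3 and 1 to 3. Rats share only a replicate number: 18 like-numbered pairs of different diets had a mean correlation of -0.00886, 102 unlike-numbered pairs 0.00105, and the best match of 5 of the 19 rats was like-numbered. The replicate block also called Apoa1, Apob (A_44_P402339) and Mttp (A_44_P684874) in HP minus HF. Scaling between arrays (Aquantile) leaves ratios unchanged by construction. Of 45 member results 16 changed sign somewhere, 36 of 1467 values, all uncalled and at most 0.304 in size. The probes of Apoa1, Apoa2, Apoa4, Apoa5, Apoc3 and Apoe and the brightest Apob probe were read from the low-sensitivity scan in both channels on all arrays. The other member probes, that of Lipc among them, were not.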
